A study of Mus musculus with 231 samples.

Results

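The let-7 family 5p arms are 9 mature microRNAs (miRNAs), mmu-let-7a-5p, mmu-let-7b-5p, mmu-let-7c-5p, mmu-let-7d-5p, mmu-let-7e-5p, mmu-let-7f-5p, mmu-let-7g-5p, mmu-let-7i-5p and mmu-miR-98-5p. The members were chosen by name, and all 9 were found among the 1863 miRNAs of the training raw count table, the 1895 miRNAs of the training CPM table (reads per 1000000 reads of the library, scaled further by TMM, so that a library need not sum to 1000000) and the 1817 miRNAs of the validation CPM table. Names are given below without mmu and the 5p suffix. Small RNA from peripheral blood mononuclear cells (PBMC) had been sequenced from C57BL/6 mice that carry a conditional Cbfb-MYH11 knock-in allele with Mx1-Cre (Cbfb56M/+/Mx1-Cre, CM) and from Ctrl littermates. Mx1-Cre is an interferon-responsive Cre and is not restricted to blood cells. CM and Ctrl mice both received polyinosinic-polycytidylic acid, poly(I:C), at 14 mg/kg in each of 7 doses from an age of 6 to 8 weeks. All CM mice carry the genotype code CHW and the Ctrl mice the codes HW, CW or WT, which the labels do not explain, and the sources differ on whether a Ctrl mouse may carry the uninduced knock-in allele. The training cohort held 7 CM mice (53 libraries) and 7 Ctrl mice (76 libraries), sampled from month 0 to at most month 10. Its CM mice were 4 females and 3 males. Its Ctrl mice were 1 female and 3 males of code CW, 2 males of code HW and 1 female of code WT, so sex was not balanced between the arms. A validation cohort of 10 CM mice and 6 Ctrl mice was sampled at points numbered 1 to 7 and a point L that the labels do not explain. Its CM mice were 5 females and 5 males, and its Ctrl mice 3 females (CW), 2 males (HW) and 1 male (WT).

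Raw counts summed to 1792809 to 7958411 per training library (median 4437464). Every value of both CPM tables was a whole number of reads within 0.1 read, and these reads summed to 1376082 to 7520419 per training library. They summed to 1645456 to 5445215 in the 12 validation libraries of point 5, and to 1744 to 76906 in the other 90. The library numbers in the titles of mouse 3334 (CM) and mouse 3335 (Ctrl) cross between month 5 and month 6 (each then continues the numbers of the other mouse), so results are also given without both mice where that changes a call. In PBMC, fewer cells of a type and less RNA per cell cannot be told apart. The marker miRNAs of mature lymphocytes (miR-150 and miR-342 arms), myeloid cells (miR-223 arms), red cells (miR-451a, miR-144 and miR-486 arms) and blood cells in general (miR-142a arms) were above 0 in every arm and month.

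let-7 was among the earliest miRNAs to be found, in the worm, where it times late larval development. In mammals the family is low in early embryos and abundant in differentiated cells, and it represses mRNAs that hold a match to the shared seed, among them those of RAS proteins, HMGA2, MYC and LIN28. LIN28 proteins in turn block the maturation of let-7 precursors. A miRNA of this family is cut from a hairpin precursor, of which the 5p arm is the arm that usually persists.

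The mature sequences are shown because the members differ from each other at so few bases that a read must be nearly complete to be assigned. The seed, bases 2 to 8 from the 5′ end, is in capitals (RefSeq, GRCm38.p6).
let-7a-5p: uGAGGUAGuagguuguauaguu
let-7b-5p: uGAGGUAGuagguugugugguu
let-7c-5p: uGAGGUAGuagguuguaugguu
let-7d-5p: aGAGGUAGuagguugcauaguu
let-7e-5p: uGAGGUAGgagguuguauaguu
let-7f-5p: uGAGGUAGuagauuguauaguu
let-7g-5p: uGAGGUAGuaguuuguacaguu
let-7i-5p: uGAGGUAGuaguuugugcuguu
miR-98-5p: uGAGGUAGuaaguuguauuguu
let-7j: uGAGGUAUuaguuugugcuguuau

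All 9 members are 22 bases long and share the seed GAGGUAG, which 11 of the 1679 mature mouse miRNAs in RefSeq hold. Counted from 1 at the 5′ end and with the let-7a base first, let-7e differs from let-7a by U9G alone, let-7f by G12A alone and let-7c by A19G alone. let-7b differs by A17G and A19G, let-7d by U1A and U16C, let-7g by G12U and U18C, miR-98 by G11A and A19U, and let-7i by G12U, A17G, U18C and A19U. let-7j, which is no member, is 24 bases long and within the 22 bases of let-7i differs from it by G8U, a change inside the seed.

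let-7a, let-7c and let-7f are each cut from 2 hairpin genes and the other 6 members from 1 each (RefSeq, GRCm38.p6). Mirlet7d, Mirlet7f-1 and Mirlet7a-1 lie together on the minus strand of chromosome 13 between 48536012 and 48538272. Mirlet7c-2 and Mirlet7b lie 621 bases apart on chromosome 15 (85706603 to 85707403, plus strand), and Mirlet7f-2 and Mir98 lie 785 bases apart on chromosome X (151912346 to 151913321, plus strand), in an intron of Huwe1. Mirlet7g (chromosome 9, 106178840 to 106178927, plus strand) lies in an intron of Wdr82, and Mirlet7i (chromosome 10, 122985640 to 122985724, minus strand) overlaps no other annotated gene. Mirlet7e (chromosome 17, 17830352 to 17830444, plus strand) overlaps no other annotated gene and has Mir125a 367 bases away. Mirlet7c-1 (chromosome 16, 77599657 to 77599750, plus strand) has Mir99a 656 bases away, and Mirlet7a-2 (chromosome 9, 41536716 to 41536811, plus strand) has Mir100 5211 bases away and lies in an intron of the long noncoding gene D230004N17Rik.

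The raw counts and the CPM table differed little for 6 members and by several log2 units for let-7a, let-7c and let-7f. Between the tables, the log2 difference of a library (its CPM of raw counts over its CPM of the reads in the CPM table) had an SD over all training libraries of 1.33 for let-7a, 1.24 for let-7c and 1.45 for let-7f. The SD was 0.081 to 0.155 for the other 6 members. It was highest for let-7e, whose raw value was 42.7% of the other table's in the month 6.5 library of mouse 3334. let-7a was more than 1 log2 unit lower in the raw table in 61 libraries, let-7c in 63 and let-7f in 63, and in the most extreme library the raw let-7f value was 1.56% of the other table's. The libraries in which the 3 members were low were not the same ones: the differences of let-7a and let-7c had a Spearman rho of 0.042, those of let-7a and let-7f −0.058 and those of let-7c and let-7f −0.096 (all training libraries of 14 mice, not independent). Both arms were affected, with a median difference of −0.69 in CM and −0.73 in Ctrl libraries for let-7a, −0.53 and −0.71 for let-7c, and −0.74 and −1.07 for let-7f. The 3 members are those with 2 hairpin genes. Among miRNAs averaging at least 100 CPM in both tables, 13 of 18 (72.2%) with 2 or more hairpin genes had an SD of this difference above 1, against 0.870% of those with 1 gene. The cause was not tested. Raw-count values of let-7a, let-7c and let-7f are therefore given below only beside those of the CPM table, and each comparison was fitted on the raw counts and again on the reads of the CPM table, a choice made after seeing the data.

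**Figure D1:**
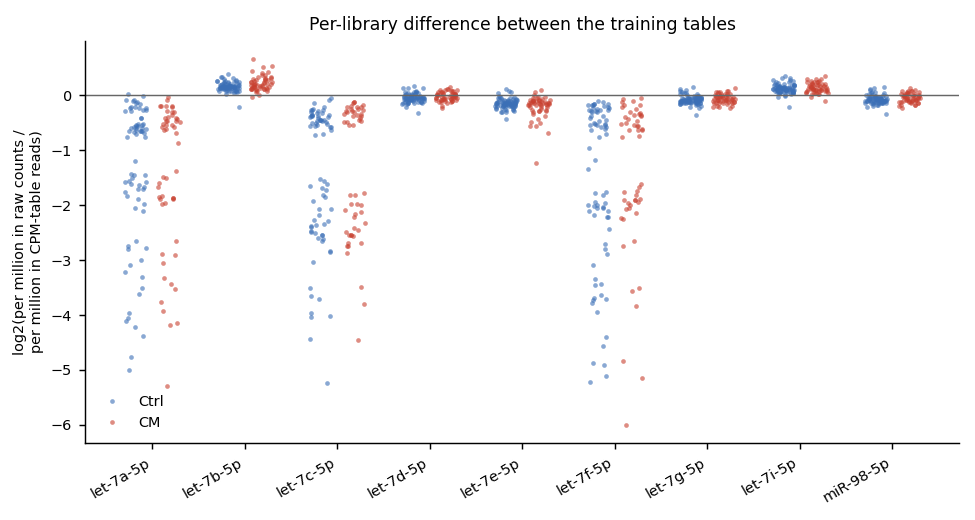
Difference between the training tables for each member, as log2 of CPM from raw counts over CPM from the reads of the CPM table (y axis), 1 point per library, by arm. let-7a, let-7c and let-7f spread over several log2 units in both arms, with SDs of 1.24 to 1.45, and the other 6 members stay close to 0, with SDs of at most 0.155.

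Together the members made up 22.4% of the CPM of a training library on average (lowest 17.3%, highest 30.9%), with a total of 224929 ± 46304 CPM (SD over all training libraries) in the CPM table. On that scale let-7f was highest, with a median of 74437 CPM (17243 to 150626). let-7i followed at 62415 CPM (37478 to 117463) and let-7g at 43064 CPM (20823 to 117557), so 3 members carried most of the family. let-7a had a median of 18517 CPM, let-7d 5750, let-7c 5391, let-7b 2973 and miR-98 2521 CPM, and the ranges of neighbours in this order overlapped. let-7e was lowest by far, at 252 CPM (51.3 to 634). Small-RNA libraries do not take up all sequences equally, so the order is one of reads. In the CPM table let-7e also varied most, by 12.4-fold between its lowest and highest library, against 3.13-fold for let-7i and 3.21-fold for let-7d. On the raw counts let-7f (147-fold), let-7c (97.2-fold) and let-7a (79.6-fold) varied more than let-7e (23.5-fold). There let-7i had the highest median (69434 CPM), ahead of let-7g (41392 CPM) and let-7f (34960 CPM). The 9 members made up 17.6% of the CPM on average in that table.

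Across the training libraries let-7e and let-7g ran against each other. In the CPM table their levels had a Spearman rho of −0.63, whereas let-7b and let-7c had a rho of 0.825 and let-7a and let-7f of 0.776. On the raw counts these pairs had rho of −0.68, 0.162 and 0.117, so only the first was alike in both. In the CPM table let-7e had a rho of 0.521 with let-7b, 0.464 with let-7i and −0.052 with let-7f. There let-7g had a rho of −0.308 with let-7b, 0.0025 with let-7i and 0.370 with let-7f. The 5 miRNAs outside the family whose level was most like the family total in the CPM table were let-7j (rho 0.778), miR-7a-5p (0.658), miR-1839-5p (0.604), miR-190b-5p (0.573) and miR-501-3p (0.573). On the raw counts they were let-7j (0.407), miR-3060-3p (0.358), miR-1839-5p (0.330), miR-26b-5p (0.317) and miR-501-3p (0.315). These coefficients describe libraries that share mice and depth scaling. let-7j, whose sequence above nearly contains that of let-7i, averaged 12817 CPM in the CPM table and 99.3 CPM in the raw counts, so its reads are uncertain.

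**Figure D2:**
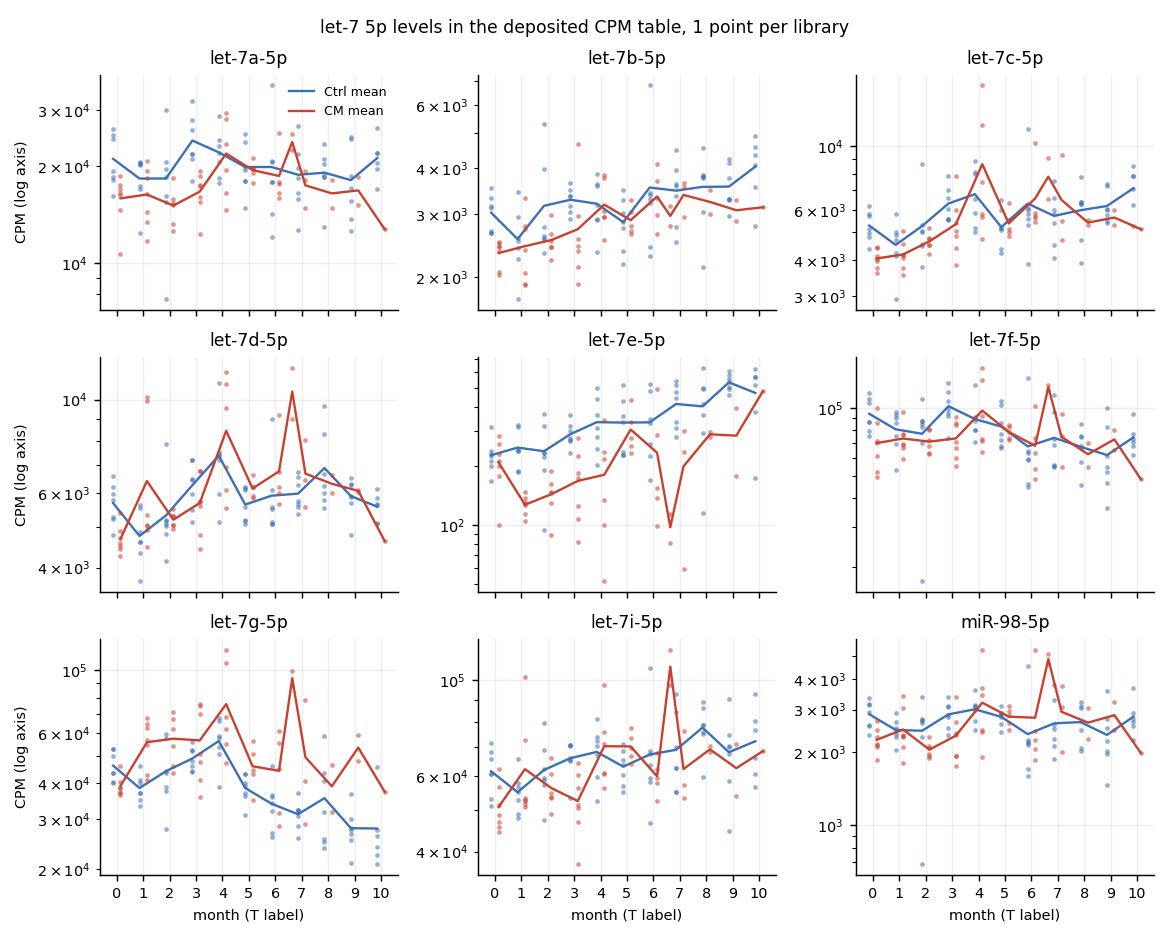
Level of each member (CPM of the CPM table, log axis) by month of sampling in the training cohort, 1 point per library, CM and Ctrl marked apart, with lines joining the means of each arm. let-7e separates the arms at month 1 and is higher at month 10 than at month 0 in Ctrl mice. The mean of let-7g in CM mice goes from 39122 CPM at month 0 to 75847 CPM at month 4 and 45863 CPM at month 5, and in Ctrl mice from 46113 CPM at month 0 to 56233 CPM at month 4 and 27708 CPM at month 10.

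At month 0, sampled first, the members tended to be lower in CM than in Ctrl mice without any member passing the test. In the CPM table the family total was 160743 to 233773 CPM in the 7 CM mice (median 184126) and 204160 to 280133 CPM in the 7 Ctrl mice (median 248369). let-7b showed the only separation, 2028 to 2512 CPM in CM (median 2424) and 2650 to 3543 CPM in Ctrl mice (median 3117). All 7 CM mice thus lay below all 7 Ctrl mice for let-7b in the CPM table, and 6 of 7 did so in the raw counts. The share of all miRNAs that separated the arms in this way is not given. The log2 fold change of let-7b was −0.29 ± 0.09 on the raw counts (SE, edgeR quasi-likelihood test, Benjamini-Hochberg adjusted p = 0.256), and −0.36 ± 0.11 on the reads of the CPM table (adjusted p = 0.226). None of the 9 members was called at an adjusted p under 0.05 in either table, where 0.209% of the 478 miRNAs tested on raw counts were called (62 at an unadjusted p under 0.05) and 0% of the 473 tested on the other (67 unadjusted). The median log2 fold change of the 9 members, with let-7a, let-7c and let-7f among them, was −0.22 on the raw counts, against 0.02 over all miRNAs tested.

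At month 1 let-7e was lower and let-7g higher in CM mice, the only members called there. let-7e measured 89.4, 118.4 and 134.3 CPM (lowest, median and highest of 7 CM mice, TMM-scaled raw counts) and 172, 222 and 310 CPM in the 7 Ctrl mice. Every CM mouse lay below every Ctrl mouse for let-7e, and the share of all miRNAs that did so is not given. The log2 fold change was −1.07 ± 0.17 (SE, edgeR adjusted p = 0.000903), and −0.96 ± 0.16 on the reads of the CPM table (adjusted p = 0.000723). let-7g measured 41416, 58316 and 63595 CPM in CM and 33756, 37179 and 44236 CPM in Ctrl mice. Of the 7 CM mice, 5 lay above every Ctrl mouse, so the arms overlapped. The log2 fold change was 0.51 ± 0.14 (edgeR adjusted p = 0.0176), and 0.55 ± 0.15 on the reads of the CPM table (adjusted p = 0.0126). Both calls held without each of the 14 mice in turn. At this month 27.5% of the miRNAs tested on raw counts and 31.4% of those tested on the reads of the CPM table were called, so 2 of 9 members is near the background. None of the other 7 members passed in either table, and on the raw counts let-7d had the highest log2 fold change of them, 0.38.

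The titles also carry a G number that the labels do not explain, and at month 1 only 3 of 6 G numbers held both arms. Fitted with the G number, let-7e stayed called (−1.03 ± 0.22, adjusted p = 0.0426) and let-7g did not (0.40 ± 0.18, adjusted p = 0.237). let-7g was also not called with raw library sizes in place of TMM scaling (0.42, adjusted p = 0.0624) or with no filter on low counts (0.58, adjusted p = 0.101). With those library sizes the median of all miRNAs tested moved by over 0.1 on the log2 scale in several comparisons. The move was −0.20 on the raw counts and −0.26 on the reads of the CPM table in the last CM libraries against month 0, −0.12 and −0.27 in CM month 1 against month 0, and 0.11 in both tables in Ctrl month 10 against month 0. It was −0.22 and −0.27 in the month 1 interaction and −0.16 and −0.32 in the late interaction below, −0.12 in both tables at month 4 and, on the reads of the CPM table alone, 0.12 at month 0 and −0.19 at month 1. Erythroid marker miRNAs summed to 53345 to 621976 CPM in CM libraries of month 1 (5 of 5 names found) and to 28288 to 69645 CPM in Ctrl libraries, and their part in these differences was not tested.

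**Figure D3:**
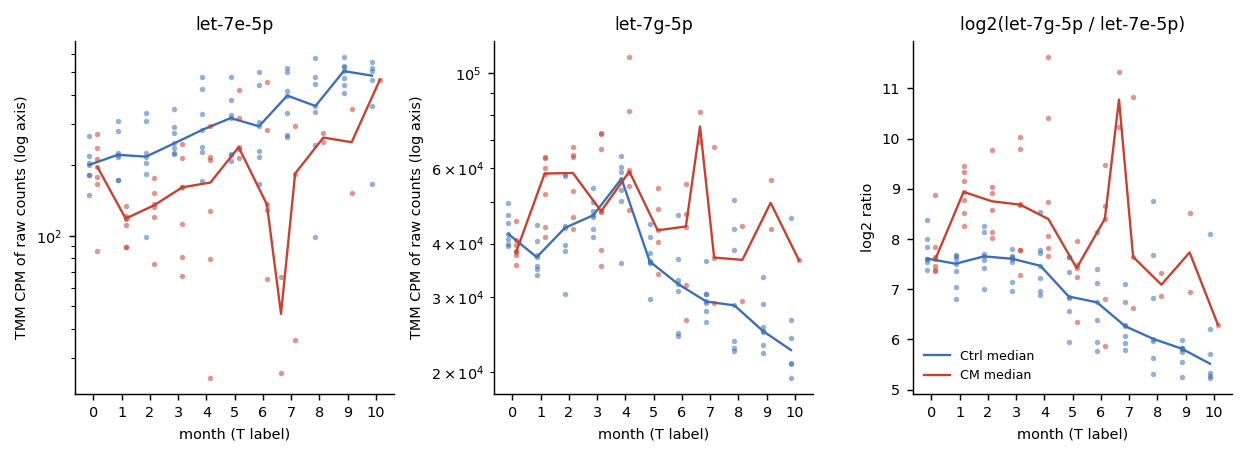
let-7e and let-7g (TMM-scaled CPM of the raw counts, log axes) and log2 of let-7g over let-7e (y axis of the last panel) by month in the training cohort, 1 point per library with the median of each arm. At month 1 the CM points of let-7e, 89.4 to 134.3 CPM, lie below all Ctrl points, 172 to 310 CPM, and the median log2 ratio of CM mice stands at 8.94 against 7.51 in Ctrl mice.

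After month 1 the difference in let-7e kept its direction to month 4 with wider errors. Its log2 fold change was −0.77 ± 0.25 at month 2 (edgeR adjusted p = 0.057), −0.75 ± 0.27 at month 3 (p = 0.0555) and −0.91 ± 0.43 at month 4 (p = 0.307). At months 5 and 6 it was −0.08 ± 0.25 (edgeR adjusted p = 0.871) and −0.59 ± 0.43 (p = 0.713). At month 3, 6 of 7 CM mice lay below every Ctrl mouse (67.5 to 247 CPM in CM, 222 to 347 CPM in Ctrl). The share of all miRNAs that separated the arms to that degree is not given. let-7g had positive log2 fold changes of 0.26 to 0.41 in these 5 months, none called. No member was called from month 2 to month 6 on the raw counts, where 13.5%, 22%, 0.837%, 0% and 0% of the miRNAs tested were called (21.6% at an unadjusted p under 0.05 for month 5 and 6.98% for month 6).

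With the reads of the CPM table, let-7e was called lower in CM at month 2 (−0.76 ± 0.23, edgeR adjusted p = 0.0307). let-7a (−0.44 ± 0.14, 0.0312), let-7e (−0.70 ± 0.25, 0.0437) and let-7f (−0.40 ± 0.13, 0.0326) were called lower at month 3. The background on those reads, month 2 to month 6, was 22.2%, 27.8%, 2.11%, 0% and 0% (23% and 8.58% unadjusted in the last 2 of these months). These 4 calls were near the threshold, and each was lost without any 1 of many mice while the direction stayed. let-7e at month 2 was lost without any 1 of mice 3338, 3341, 3342, 3350, 3357 or 3368, with log2 fold changes of −0.91 to −0.64 over all leave-outs. At month 3, 10 to 12 of the 14 leave-outs ended the call of let-7a (−0.48 to −0.32), of let-7e (−0.87 to −0.51) or of let-7f (−0.42 to −0.29). Adjusted for the G number, let-7e at month 3 turned to 0.35, where only 1 of 5 G numbers held both arms. With sex as a covariate let-7e was not called at month 2, and fewer members were called at month 3.

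With the counts of months 1 to 4 summed for each mouse, let-7e was lower in CM (−0.85 ± 0.19, edgeR adjusted p = 0.00389), and the call held without each mouse in turn (−0.93 to −0.72). let-7g was at 0.32 ± 0.13 (adjusted p = 0.0714). From the reads of the CPM table let-7e (−0.81 ± 0.16, 0.00139), let-7g (0.33 ± 0.12, 0.0472) and let-7a (−0.26 ± 0.09, 0.0398) passed. With sex as a covariate let-7e alone passed on those reads. Here 28.9% of the miRNAs tested on raw counts and 34.9% of those on the other reads were called.

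Within CM mice, the change from month 0 to month 1 ran the same way. let-7e fell by 0.77 ± 0.21 on the log2 scale (edgeR adjusted p = 0.0339) and let-7g rose by 0.50 ± 0.15 (adjusted p = 0.0395), against a background of 12.7%. Counted in the CPM table, let-7e was at −0.68 ± 0.20 (edgeR adjusted p = 0.0268) and let-7g at 0.55 ± 0.15 (0.0259), against 18%. The same mice were sampled at both months, and with the mouse as a block neither was called (let-7e −0.72 ± 0.24, adjusted p = 0.0955, and let-7g 0.48 ± 0.18, adjusted p = 0.134). With no filter on low counts neither was called (adjusted p of 0.0648 and 0.296). Leaving out 1 of mice 3336, 3338, 3357 or 3370 ended both calls, leaving out 3341 that of let-7e and leaving out 3368 that of let-7g, with let-7e between −0.91 and −0.69 and let-7g between 0.45 and 0.58. In Ctrl mice no member was called between months 0 and 1, where 0.63% of miRNAs were called on raw counts (68 unadjusted) and 0.426% on the reads of the CPM table (69 unadjusted). let-7g was at −0.26 ± 0.09 in them (adjusted p = 0.217).

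Whether the change from month 0 to month 1 differed between the arms was tested as an interaction. let-7g (0.79 ± 0.17, edgeR adjusted p = 0.00544), let-7e (−0.88 ± 0.26, 0.0335) and let-7d (0.71 ± 0.23, 0.049) passed, against a background of 8.46%. On the reads of the CPM table the values were 0.74 (0.00612), −0.88 (0.0223) and 0.69 (0.0475), against 13%. With the mouse as a block only let-7g was called in the raw counts (0.77 ± 0.19, adjusted p = 0.041), and let-7e (−0.81 ± 0.26) had an adjusted p of 0.0896 and let-7d (0.63 ± 0.25) of 0.153. With no filter on low counts none was called (adjusted p of 0.0693 to 0.244). let-7g held without each mouse, between 0.62 and 0.79. let-7e lost its call without mouse 3336, 3338 or 3350 (−1.08 to −0.81 over all leave-outs), and let-7d without any of 13 of the 14 mice (0.52 to 0.68). Every leave-out value of let-7d thus lay below its 0.71 with all mice.

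The last library of each CM mouse, taken between month 4 and month 10, was compared with its month 0 library. In the CPM table the family total rose from a median of 184126 CPM to 273685 CPM (182508 to 391368). let-7g on the raw counts was 35728 to 45259 CPM at month 0 and 36579 to 109358 CPM in the last libraries (medians 38339 and 67263). It was higher in 6 of 7 mice, and the values overlapped through mouse 3368, whose last library held 36579 CPM. let-7g (0.91 ± 0.22, edgeR adjusted p = 0.00642), let-7d (0.75 ± 0.19, 0.00817), let-7b (0.68 ± 0.18, 0.00895) and miR-98 (0.75 ± 0.21, 0.0104) rose. These 4 calls held without each mouse in turn and with the mouse as a block, against a background of 39%. With no filter on low counts only let-7g was called (0.73 ± 0.23, adjusted p = 0.0412), and the others had adjusted p of 0.0953 to 0.144. The summed mature lymphocyte markers (4 of 4 names found, raw counts, none at 0) were 29799 to 69761 CPM in CM mice at month 0 and 9572 to 58529 CPM in the last libraries (medians 55984 and 25498). The myeloid markers (2 of 2 names, none at 0) were 5390 to 39990 CPM and 2016 to 6308 CPM (medians 9138 and 4543). Their part in these changes was not tested.

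The same comparison called 8 of the 9 members higher when fitted on the reads of the CPM table, against 45% of all miRNAs tested. let-7c changed most (1.27 ± 0.22, edgeR adjusted p = 0.000758): it measured 3622 to 4436 CPM at month 0 and 5133 to 16261 CPM in the last libraries. The groups did not overlap and let-7c rose in 7 of 7 mice, whereas on the raw counts let-7c was at 0.69 ± 0.51 (adjusted p = 0.29). The share of all miRNAs without overlap between these groups is not given. let-7g (0.98), miR-98 (0.84), let-7d (0.83), let-7f (0.60), let-7b (0.54), let-7a (0.50) and let-7i (0.41) were the other 7. The calls of let-7a, let-7f and let-7i, with adjusted p of 0.046, 0.046 and 0.0457, were each lost without any 1 of 6 of the 7 mice, and that of let-7b without mouse 3336 or 3341 (0.42 to 0.60). With raw library sizes 3 members were called, and with the mouse as a block 6. The share of all miRNAs called in these alternative fits is not given.

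let-7e was the exception. On the raw counts it went from 178 to 25.99 CPM in mouse 3334 (last library at month 6.5), from 212 to 35.8 in mouse 3336 (month 7) and from 238 to 24.8 in mouse 3338 (month 4). It went from 272 to 65.01 CPM in mouse 3341 (month 6), from 197 to 79.8 in mouse 3357 (month 4), from 166 to 153 in mouse 3370 (month 9) and from 86.3 to 464 in mouse 3368 (month 10). The level thus dropped in the 5 mice whose last library came by month 7, and in the mice sampled to months 9 and 10 it was near its start or above it. Mouse 3334 is 1 of these 5, and its library numbers cross before month 6. Its month 0 and month 6.5 libraries may therefore not come from 1 mouse. Over the 7 mice the log2 fold change was −0.63 ± 0.56 (edgeR adjusted p = 0.373). In the CPM table the same 5 mice went down by less, to 51.3 to 99.9 CPM, with mouse 3334 at 199 CPM at month 0 and 80.5 CPM in the last library, and mouse 3370 stood at 177 CPM in both.

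**Figure D4:**
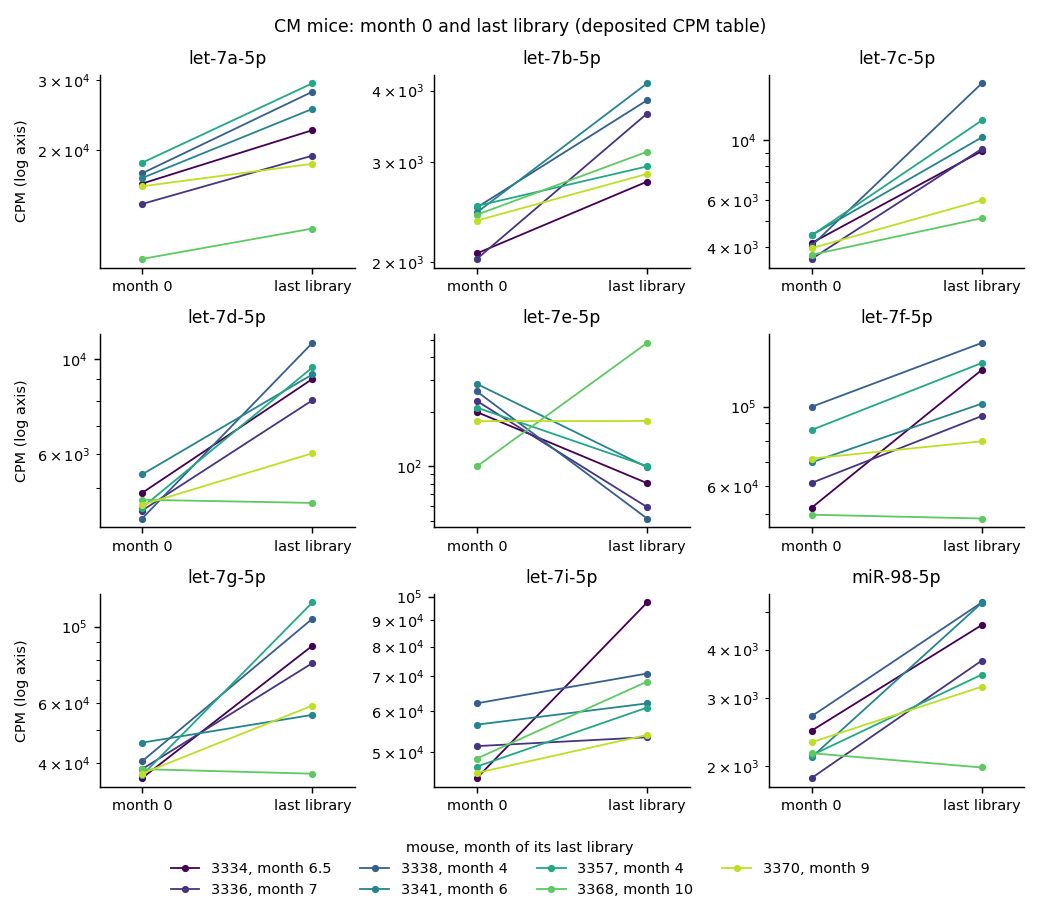
Each member in the month 0 and the last library of the 7 CM mice (CPM, log axis), with 1 line per mouse. The lines of let-7c rise in 7 of 7 mice, and those of let-7e drop steeply in 5 mice, stay level in mouse 3370 and rise in mouse 3368. The line of mouse 3334 joins libraries whose numbers cross to those of another mouse.

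In Ctrl mice let-7e was higher and let-7g lower at month 10 than at month 0. let-7e was 149, 201 and 266 CPM at month 0 (lowest, median and highest of 7 mice) and 166, 483 and 555 CPM at month 10 (6 mice). let-7g was 39427, 42104 and 49742 CPM at month 0 and 19454, 22549 and 45972 CPM at month 10. In both cases 1 month 10 library, that of mouse 3335, lay among the month 0 values. let-7e rose (1.20 ± 0.24, edgeR adjusted p = 0.00257), let-7b rose (0.47 ± 0.14, 0.0193) and let-7g fell (−0.64 ± 0.19, 0.0205), against a background of 26.8%. With the mouse as a block let-7e was called (1.09 ± 0.27, adjusted p = 0.0257), and let-7b (0.43 ± 0.15, 0.0721) and let-7g (−0.71 ± 0.22, 0.0631) were not. With no filter on low counts let-7e alone was called (adjusted p = 0.0045). Leaving out mouse 3339 or 3340 ended the call of let-7b (0.43 to 0.55), and leaving out 3339, 3340, 3342, 3346 or 3349 that of let-7g (−0.88 to −0.52). In the fit on the CPM table let-7b (0.52), let-7c (0.53), let-7e (1.14) and let-7g (−0.63) were called, against 30.9%. In the same libraries the mature lymphocyte markers were 35820 to 67988 CPM at month 0 and 17403 to 57877 CPM at month 10 (medians 55953 and 20931). The myeloid markers were 9281 to 13746 CPM and 2900 to 7970 CPM (medians 11152 and 3679), with no overlap. How many of all miRNAs lacked overlap between these months is not given. Their part in the changes of the members was not tested.

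At month 6 no member was called in Ctrl mice in either table (let-7e 0.63 ± 0.23, edgeR adjusted p = 0.0574, and let-7g −0.40 ± 0.16, 0.0787), where 20.5% of miRNAs on raw counts (161 unadjusted) and 21.9% on the reads of the CPM table (166 unadjusted) were. Without mice 3334 and 3335, 2 members were called there in each table, and the share of all miRNAs called without them is not given. The balance of let-7g and let-7e put both members on 1 scale. In Ctrl mice the median of log2(let-7g/let-7e) went from 7.61 at month 0 to 5.52 at month 10. In CM mice it began at 7.60 and stood at 8.94 at month 1, 8.75 at month 2 (6 mice) and 8.68 at month 3. It was 8.40 for the 6 mice of month 4, 7.42 for the 5 mice of month 5 and 8.40 for the 5 mice of month 6. Later CM medians were 10.8 (month 6.5, 2 mice), 7.64 (month 7, 3 mice), 7.09 (month 8, 2 mice), 7.73 (month 9, 2 mice) and 6.30 (month 10, 1 mouse). In the last libraries of the 7 CM mice the median was 10.4 (6.30 to 11.6), so the CM course by month did not rise steadily. The ratio was composed after its parts were seen and carries no test.

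**Figure D5:**
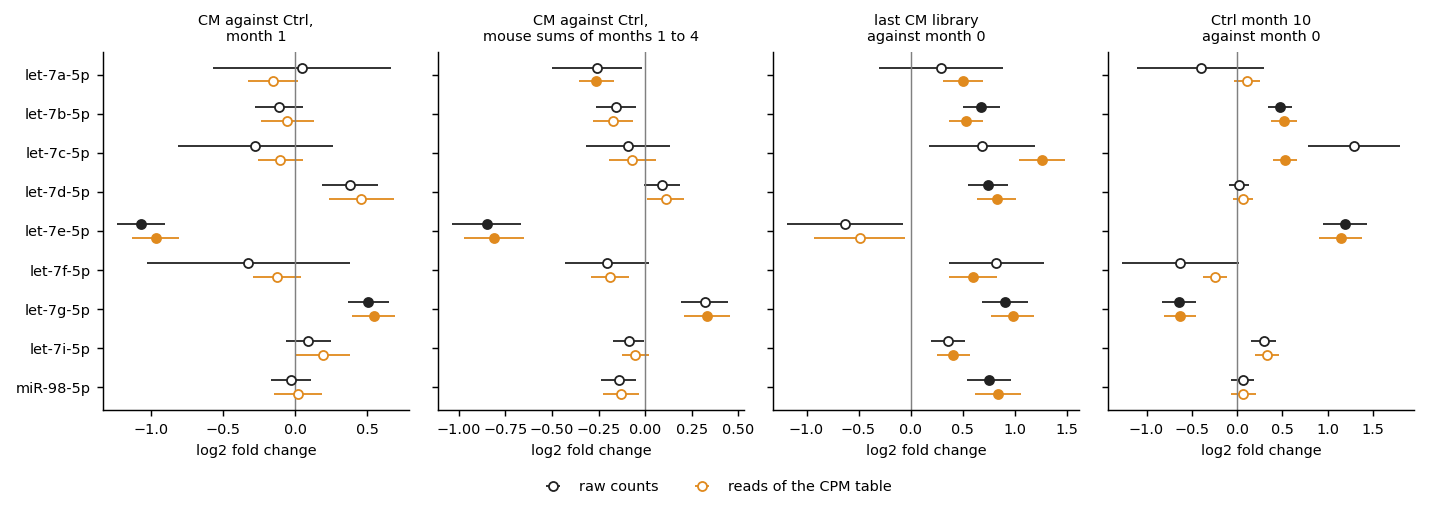
Log2 fold change of each member with its SE (x axis) in 4 comparisons, from the raw counts and from the reads of the CPM table, with filled points for an adjusted p under 0.05. let-7e and let-7g lie on opposite sides of 0 in CM against Ctrl mice at month 1 (−1.07 and 0.51) and again, turned around, in Ctrl mice between months 0 and 10 (1.20 and −0.64).

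The interaction of arm and late sampling set the last CM library against month 0 beside Ctrl month 6 against month 0. let-7g (1.28 ± 0.27, edgeR adjusted p = 0.00448) and miR-98 (0.95 ± 0.30, 0.0362) passed, against a background of 14.8%. let-7g held without each mouse (1.05 to 1.41). miR-98 lost its call with no filter on low counts (adjusted p = 0.131), without mice 3334 and 3335 together (0.88 ± 0.31, adjusted p = 0.0737) and without any 1 of mice 3335, 3336, 3339, 3346, 3349, 3350, 3357 or 3370 (0.82 to 1.08 over all leave-outs). On the reads of the CPM table let-7g (1.41), miR-98 (1.07), let-7f (1.04), let-7c (0.98) and let-7d (0.75) passed, against 16.9%. There let-7d lost its call without mouse 3341 and let-7f without mouse 3334, 3346 or 3349 (0.67 to 0.96 and 0.94 to 1.32).

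The cluster partners of let-7e tracked its level across libraries, and the partners beside let-7c and let-7a did not track theirs. In the CPM table miR-99a-5p had a Spearman rho of −0.136 with let-7c, and miR-100-5p of −0.401 with let-7a. Over the training libraries let-7e in the CPM table had a Spearman rho of 0.768 with miR-125a-5p and 0.761 with miR-99b-5p, both products of its cluster, and 0.744 with its own 3p arm. In Ctrl mice miR-99b rose with it by month 10 (0.95 ± 0.22, edgeR adjusted p = 0.00616), as did miR-125a (0.83 ± 0.27, 0.038) and let-7e-3p (1.70 ± 0.45, 0.0125, on a mean of 1.68 CPM at month 0 and 5.06 CPM at month 10). In CM against Ctrl mice at month 1, where let-7e was lower, neither cluster partner was called: miR-99b was 499 to 779 CPM in CM and 473 to 808 CPM in Ctrl mice. Of the 5 cluster partners tested there, 2 were higher in CM, miR-99a (0.69 ± 0.16, 0.0105) and miR-100 (2.27 ± 0.46, 0.00523), which lie beside Mirlet7c-1 and Mirlet7a-2, and none was lower. The background at that month was 27.5%. let-7c and let-7a were not called at that month in either table.

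Of the 12 3p arms from the same hairpins, 8 passed the filter on low counts at month 1. Only let-7a-1-3p was called there, higher in CM (1.05 ± 0.26, edgeR adjusted p = 0.0105), against a background of 27.5%. In the CPM table let-7a-1-3p and let-7c-2-3p hold identical values in every library, so they cannot be told apart. In the last CM libraries against month 0, let-7a-1-3p (2.07 ± 0.44, 0.00304) and let-7b-3p (1.90 ± 0.37, 0.00172) were higher, and let-7g-3p (−1.36 ± 0.43, 0.0218) and let-7i-3p (−0.65 ± 0.22, 0.0329) lower. The background in those libraries was 39%. let-7g-3p thus moved against its 5p arm. Its levels were low, with a mean of 5.85 CPM at month 0 and 2.03 CPM in the last libraries.

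Vessel wall miRNAs also moved with let-7e. The summed level of miR-143-3p and miR-145a-5p (2 of 2 names found, raw counts) had a Spearman rho of 0.719 with let-7e, and in the CPM table of −0.593 with let-7g, over all training libraries. The sum was 159 to 611 CPM in the CM libraries of month 1 and 225 to 634 CPM in the Ctrl libraries, with medians of 277 and 483 CPM, so the arms overlapped where those of let-7e did not. It was 400 to 1009 CPM in Ctrl libraries of month 10. In the last CM libraries it was 19.9 to 1587 CPM, with a median of 73.3 CPM, and the highest value was the month 10 library of mouse 3368. Neither name was at 0 in any group. The part of this signal in the changes of let-7e was not tested.

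In the validation cohort only point 5 was deep enough to measure every member. There let-7e was 31.2, 150 and 219 CPM (from recovered reads, lowest, median and highest of 6 CM mice) and 95.2, 272 and 380 in 6 Ctrl mice. The arms overlapped, with 161 reads of let-7e in the lowest library. The log2 fold change was −0.90 ± 0.44 (limma on log2 of the deposited CPM plus 1, adjusted p = 0.863). let-7g was 42491 to 55279 CPM in CM and 38182 to 47303 in Ctrl mice (0.29 ± 0.29, adjusted p = 0.947), again with overlap. The family total was 200647 to 236642 CPM in CM and 173519 to 254321 in Ctrl mice. No member was called, nor was any of the 930 miRNAs tested (limma, 0%, 54 at an unadjusted p under 0.05) or of the 478 tested by edgeR on the recovered reads (70 unadjusted), and labels do not place point 5 in months.

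In the other 90 validation libraries the 9 members together had a median of 22 reads, and as few as 3. let-7e had no read in 83 of them, where a count of 0 allows up to 3 reads, and no difference in it was detectable at this depth. No member was called at any point from 1 to 7, where 4 to 9 members could be tested. limma called 0% of the miRNAs tested at points 1, 3, 4, 6 and 7 (18, 1, 20, 5 and 8 at an unadjusted p under 0.05) and 2.78% at point 2. edgeR on the recovered reads also called none at those 5 points (2, 1, 2, 0 and 1 unadjusted). At point L against point 1 in 5 CM mice, let-7i alone of 5 members tested was called (−2.53 ± 0.66, limma adjusted p = 0.0118), against a background of 18.1%. This rested on 8 to 17 reads at point 1 and 2 to 6 at point L, and the call was lost without mouse 2719. The direction depended on the scaling: the deposited TMM-scaled value was lower at point L in 5 of 5 mice, whereas the plain share of reads was higher in 3 of 5, and on that share the log2 fold change was 0.37 ± 0.77 (limma adjusted p = 0.765). By plain share, limma called 60 of 166 miRNAs tested, with 2 members among them and let-7i not. let-7f and let-7g were each higher at point L in 5 of 5 mice by plain share, and in 2 of 5 by the deposited value. A single other miRNA, miR-5099, took 96.8% to 98.2% of the reads of these mice at point 1 and 36.7% to 85.9% at point L. With the values rescaled without miR-5099, let-7i stayed called lower at point L. It did so in 6 of 8 alternative settings, the plain share and no filter on low values being the exceptions. The cause of the let-7i difference was not tested.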

How the data were processed

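PBMC small RNA libraries of 231 samples were analysed. The authors trimmed adapters with cutadapt, aligned reads with Bowtie to the mouse genome (mm9 in the methods, GRCm38 in the submitters' notes) and counted mature miRNAs of miRBase. They deposited raw counts for the training cohort, and per the methods CPM values scaled by TMM in edgeR for both cohorts. The deposited CPM values are used as a signal on that scale, since dividing each library by its smallest step gave whole reads for 100% of values.

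Counts were tested with edgeR 4.0.16 (quasi-likelihood test, TMM scaling, filterByExpr, Benjamini-Hochberg over all miRNAs tested, two-sided, threshold 0.05) in R 4.3.3. The same fit was run on the reads recovered from the CPM tables. DESeq2 1.42.0 was an alternative. limma 3.58.1 (log2 of CPM plus 1) was an alternative in training and the main test of the validation cohort. Libraries of 1 mouse were paired by the mouse number in their titles, which served as the block. The fits were tested on simulated counts. Levels on raw counts are TMM-scaled CPM.

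Members and lists were chosen with earlier results of these data known. Named beside the 9 members, by a fixed rule, were the 3p arms, cluster partners, marker lists, let-7j and let-7k, and the 5 miRNAs with the highest rho to the family total. let-7k stayed near 0. Exons and introns come from GENCODE vM1, by a match of each hairpin to NCBIM37. Intervals are not given for counts, and floors cover counting error only.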

Additional observations from a re-analysis of the deposited data

Results flagged for a closer look

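Of 180 groups of 4 to 10 libraries (9 members, by arm and month or point), 23 (12.8%) held a library far from its group by Dixon's test, which chance gives in about 1 group in 20. The values are CPM of the CPM table or, for validation, CPM of the recovered reads. Mouse 3342 (Ctrl) stood low in let-7a at month 1 (12453) and let-7i at month 3 (53389). It stood high in let-7c (8639) and let-7d (7834) at month 2, and in let-7b (6795), let-7c (11465), let-7f (135955) and miR-98 (4525) at month 6. Mouse 3349 (Ctrl) stood low in let-7f (17243) and miR-98 (689) at month 2 and high in let-7d (9008) at month 6. Other Ctrl libraries were those of mouse 3350 at month 8 (let-7a, 12969), mouse 3340 at month 8 (let-7i, 59654) and mouse 3335 at month 10 (let-7g, 45598). Among CM libraries, mouse 3368 at month 0 was low in let-7a (10711), and mouse 3341 at month 6, its last library, was high in let-7a (25396), let-7c (10242) and miR-98 (5285). At validation point 5, mouse 2683 (Ctrl) was low in let-7a (13403), mouse 2684 (CM) in let-7a (11767) and let-7e (31.2), and mouse 2718 (CM) in let-7f (38848) and miR-98 (1007).

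Some members passed an interaction test of arm and time (edgeR, adjusted p under 0.05). Of all miRNAs tested on raw counts, 8.46% passed at month 1 and 14.8% in the late libraries. On the reads of the CPM table these shares were 13% and 16.9%. With the mouse as a block, only let-7g kept its month 1 call on the raw counts. Between months 0 and 1 the difference of log2 changes, CM minus Ctrl, was 0.71 for let-7d, −0.88 for let-7e and 0.79 for let-7g on the raw counts, and 0.69, −0.88 and 0.74 on the reads of the CPM table. For the late libraries it was 1.28 for let-7g and 0.95 for miR-98 on the raw counts. On the reads of the CPM table it was 0.98 for let-7c, 0.75 for let-7d, 1.04 for let-7f, 1.41 for let-7g and 1.07 for miR-98.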

How the results depend on the processing

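Depth limits let-7e most, the member with the fewest reads, and at validation points other than 5 too few reads were left to measure every member. let-7a, let-7c and let-7f depend on which training table is read: the family total was 176779 CPM in the raw counts and 224929 ± 46304 CPM in the CPM table. The G number could not be fitted at month 4, where no G number held both arms. The cause of each change below was not tested.

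On the raw training counts, of 143 alternatives 14 lowered the number of members called by over 1.5 times, 24 raised it and the rest kept it. On the reads of the CPM table, 46 of 68 kept it, 17 lowered it and 5 raised it, and in validation 59 of 61 kept it. The number reported comes first in each pair below. For most alternatives the share of all miRNAs called is not given.

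On the raw counts, DESeq2 called members at month 0 (0 to 1), month 2 (0 to 1), month 3 (0 to 2), Ctrl month 6 (0 to 2) and in the sums of months 1 to 4 (1 to 2). Raw library sizes changed month 1 (2 to 1), month 2 (0 to 1), CM month 1 against 0 (2 to 1) and the late interaction (2 to 1). No filter on low counts changed month 1 (2 to 1), month 3 (0 to 1), the last CM libraries (4 to 1), CM month 1 against 0 (2 to 0), Ctrl month 10 (3 to 1), the month 1 interaction (3 to 0), the late interaction (2 to 1) and validation point L (1 to 0). A minimum of 10 counts changed month 2 (0 to 1) and the sums (1 to 2). limma on the CPM table changed month 3 (0 to 3), Ctrl month 6 (0 to 1), the month 1 interaction (3 to 1), the late interaction (2 to 5) and the sums (1 to 2). The G number as a covariate changed month 1 (2 to 1). A fit over all training libraries changed month 3 (0 to 1), and with the G number month 4 (0 to 1). Without mice 3334 and 3335, month 3 (0 to 1), Ctrl month 6 (0 to 2) and the late interaction (2 to 1) changed. Sums of months 1 to 3 or 1 to 6 gave 2 in place of 1. edgeR on the reads of the CPM table changed month 2 (0 to 1), month 3 (0 to 3), the last CM libraries (4 to 8), the late interaction (2 to 5) and the sums (1 to 3).

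On the reads of the CPM table, raw library sizes changed month 1 (2 to 1), the last CM libraries (8 to 3), CM month 1 against 0 (2 to 1), the month 1 interaction (3 to 1) and the late interaction (5 to 1). The G number changed month 0 (0 to 1), month 1 (2 to 1), month 2 (1 to 0) and month 3 (3 to 0), where let-7e turned from −0.70 to 0.35. Sex as a covariate changed month 2 (1 to 0), month 3 (3 to 1) and the sums (3 to 1). A fit over all training libraries changed month 2 (1 to 0) and month 4 (0 to 1), and with the G number also month 3 (3 to 0). Without mice 3334 and 3335, the last CM libraries (8 to 5) and Ctrl month 6 (0 to 2) changed. Sums of months 1 to 3 gave 5 in place of 3.

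With the mouse as a replicate block, CM month 1 against 0 went from 2 to 0 and the month 1 interaction from 3 to 1 in both tables. In the last CM libraries all 4 members called on the raw counts passed (let-7g 0.82 ± 0.25, edgeR adjusted p = 0.034). In Ctrl month 10, let-7c and let-7e passed with the block, in place of let-7b, let-7e and let-7g.

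Without each mouse in turn, the raw counts called 0 to 2 members at month 2 (changed by mouse 3340 or 3349), 0 to 2 at month 3 (3334, 3341 or 3370), 0 to 2 in CM month 1 against 0, 0 to 2 in Ctrl month 6 (3335 or 3342), 1 to 3 in Ctrl month 10 and in the month 1 interaction, 1 to 4 in the late interaction, 4 to 5 in the last CM libraries and 1 to 2 in the sums (3334, 3336, 3340 or 3370). The reads of the CPM table called 0 to 4 at month 2, 0 to 3 at month 3, 4 to 8 in the last CM libraries, 0 to 2 in CM month 1 against 0 and in Ctrl month 6, and 1 to 3 in the month 1 interaction and in the sums. Validation point L called 0 to 1. On the plain share of reads it called 2 in place of 1 and let-7i turned from −2.53 to 0.37.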
